A study of Mus musculus with 3 samples.

Results

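Strong KLF4 sites that lay away from the ends of genes and had no HDAC3 peak on them were examined in mouse skin epithelium shortly before birth. A KLF4 peak belonged to the group when its normalized tag count (the tags under the peak, scaled to a library of 10000000 tags) was 28 or more, when its centre lay more than 1 kb from every end of a protein-coding gene, and when no HDAC3 peak shared a base with it (all peaks of both lists have 1 fixed width). The sites were thus chosen by KLF4 height, position and the absence of an HDAC3 call. This rule gave 1458 of the 47155 KLF4 peaks (3.09%). They are called HDAC3-free sites here. The 3053 strong distal KLF4 peaks that an HDAC3 peak overlapped are called shared sites and serve as the comparison. All libraries were made from the back epidermis of wild-type mouse embryos of stage E18.5: 1 precipitated for KLF4 with the antibody R&D AF3158, 1 precipitated for HDAC3 with Abcam ab7030, and 1 input without antibody. No treatment or mutant was part of the design, and the tissue was a whole epidermis in which basal, spinous and cornifying layers are mixed. Each antibody had a single library, so nothing could be checked between replicates and no difference was tested. Ranges in parentheses after a share are its exact 95% interval by Clopper-Pearson, which cover counting error only and treat neighbouring peaks as independent.

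KLF4 is a zinc finger transcription factor of differentiating keratinocytes that binds GC-rich and CACCC-like elements, and mice that lack it are born with a defective skin barrier. HDAC3, a histone deacetylase of class I, has no DNA-binding domain of its own and is brought to chromatin by transcription factors through the NCoR and SMRT corepressor complexes. Distal sites of a transcription factor are often enhancers, stretches of DNA that act on genes from a distance.

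The base sequences of a few HDAC3-free sites were read from RefSeq windows around annotated transcription starts (GRCm38.p6, 250 bases before to 50 after a start). Such a window covered at least 90% of the peak at 18 of the 1458 sites, all of them at starts that are not the outer end of a protein-coding gene. Shown here are the 7 sites at an additional start of a protein-coding gene and the site at Rbakdn, which held the most KLF-type matches; they were chosen after their values were seen. Each is the covered part of the peak, written 5′ to 3′ on the strand of its transcript. Capitals mark matches to the KLF-type motif GGGNGTGG or to the AP-1 motif TGANTCA on either strand.
Dmkn, chr7:30776205-30776389, plus strand: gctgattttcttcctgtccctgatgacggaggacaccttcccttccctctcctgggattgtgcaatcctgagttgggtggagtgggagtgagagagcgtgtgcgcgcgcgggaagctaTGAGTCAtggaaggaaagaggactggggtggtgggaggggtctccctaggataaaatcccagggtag
Cdsn, chr17:35552002-35552177, plus strand: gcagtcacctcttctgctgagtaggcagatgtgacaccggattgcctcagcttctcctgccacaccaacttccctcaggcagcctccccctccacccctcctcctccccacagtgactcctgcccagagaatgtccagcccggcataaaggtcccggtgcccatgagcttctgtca
Sgms1, chr19:32210998-32211182, minus strand: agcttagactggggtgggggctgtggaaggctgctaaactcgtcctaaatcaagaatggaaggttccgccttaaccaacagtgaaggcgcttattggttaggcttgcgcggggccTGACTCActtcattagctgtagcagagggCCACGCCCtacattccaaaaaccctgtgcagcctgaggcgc
Lipe, chr7:25390064-25390248, minus strand: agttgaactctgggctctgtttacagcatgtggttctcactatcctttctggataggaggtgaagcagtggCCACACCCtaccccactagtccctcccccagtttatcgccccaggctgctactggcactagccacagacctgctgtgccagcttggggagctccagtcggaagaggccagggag
Mob2, chr7:142026029-142026209, minus strand: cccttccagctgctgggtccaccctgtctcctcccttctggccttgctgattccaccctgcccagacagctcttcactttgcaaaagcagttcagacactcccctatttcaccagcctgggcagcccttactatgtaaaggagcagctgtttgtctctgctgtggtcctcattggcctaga
Fbxl18, chr5:142895296-142895480, minus strand: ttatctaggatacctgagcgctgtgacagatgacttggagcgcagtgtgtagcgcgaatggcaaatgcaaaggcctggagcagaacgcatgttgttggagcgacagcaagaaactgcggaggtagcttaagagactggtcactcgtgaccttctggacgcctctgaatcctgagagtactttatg
Cyth1, chr11:118212796-118212980, minus strand: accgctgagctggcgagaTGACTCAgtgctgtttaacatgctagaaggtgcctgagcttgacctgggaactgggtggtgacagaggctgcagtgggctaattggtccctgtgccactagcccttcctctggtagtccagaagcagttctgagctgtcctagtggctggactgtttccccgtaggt
Rbakdn, chr5:143165814-143165998, minus strand: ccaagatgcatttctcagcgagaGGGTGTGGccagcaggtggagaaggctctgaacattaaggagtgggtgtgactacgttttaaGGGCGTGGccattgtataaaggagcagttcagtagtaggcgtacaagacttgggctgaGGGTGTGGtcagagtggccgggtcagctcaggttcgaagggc

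Several of these starts belong to genes of the skin barrier or of lipid metabolism. Dmkn encodes dermokine, a secreted protein of the upper epidermis, and its site carried 49.8 KLF4 tags, 108 bp from an inner start and 4769 bp from the nearer end of the gene. Cdsn encodes corneodesmosin, the adhesive protein of corneodesmosomes; its site carried 37.6 KLF4 tags and lay 5086 bp from a gene end. Sgms1, a sphingomyelin synthase gene, had a site of 32.2 tags, and Lipe, the hormone-sensitive lipase gene, had one of 28 tags at the tag limit itself. The site at Mob2 had 63.0 tags over 10 input tags (17.6-fold over input), and Fbxl18 had 36 tags over 12 input tags (8.33-fold). Cyth1 had 28.3 tags over 3 input tags (26.5-fold) and Rbakdn 39.6 tags over 16 input tags (6.98-fold). Among these 8 sequences, the KLF-type motif stood in Sgms1, in Lipe and at 3 places in Rbakdn, and the AP-1 motif stood in Dmkn, Sgms1 and Cyth1. Over all 18 readable HDAC3-free sites, 9 (50%; 26.0 to 74.0) held GGGNGTGG and 5 (27.8%; 9.70 to 53.5) held TGANTCA, searched on both strands. Of 120 other KLF4 peaks of 28 tags or more in such windows, 32.5% (24.2 to 41.7) held GGGNGTGG and 22.5% (15.4 to 31.0) held TGANTCA. Of stretches of the same width in the middle of all 32851 promoter windows, 12.9% held GGGNGTGG and 5.17% held TGANTCA. The intervals of the HDAC3-free sites include the shares of the other strong KLF4 peaks for both motifs. The other motifs, searched on both strands, were in fewer of the 18 sites. The GRHL motif AACCNGTT was in 1 of the 18 sites (1.36% of all promoter windows), the C/EBP motif TTGCNNAA in 3 (6.96%), the TEAD motif CATTCC in 3 (9.45%) and the GATA motif AGATAA in 1 (7.24%). The RUNX motif TGTGGTT, which can share bases with GGGNGTGG, was in 2 (3.24%), and the ETS motif CCGGAAG (5.59%) and the p53 family site (0.0670%) were in none, with an upper limit of 18.53% at this number of sites. Of the 120 other KLF4 peaks of 28 tags or more, 5% held the GRHL, 12.5% the C/EBP, 16.7% the TEAD and 6.67% the GATA motif. The RUNX motif was in 1.67% of those peaks, the ETS motif in 6.67% and the p53 family site in none. For each of these motifs the interval of the 18 sites includes the share of those peaks. A match is a description of letters, and the 18 sites were those near starts, so they do not stand for the other members.

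The values that chose the sites are given as a description. Of the KLF4 peaks on chromosomes, 10.8% (5085 of 47140) reached 28 tags, and 4511 of those were distal. HDAC3-free sites made up 32.3% (31.0 to 33.7) of the strong distal KLF4 peaks. No HDAC3 peak overlapped 68.4% of all distal KLF4 peaks and 68.3% of all KLF4 peaks on chromosomes. At gene ends, 34.3% (30.4 to 38.4; 197 of 574) of the strong KLF4 peaks there had no HDAC3 peak. Just inside the tag limit was a site near Plekhf2, at 28 tags, and just outside it were peaks in Ppfibp2 and near Nemf, both at 27.8 tags. The sites nearest to an HDAC3 centre lay near Tulp1 and Epha4, both 187 bp from it, while the peak in Cars, which shared 1 base with its HDAC3 peak, and the peak in Itpkc, 180 bp from HDAC3, counted as shared. Closest to a gene end were sites at Hmgb2 (1008 bp) and S100a13 (1023 bp), and peaks at Ly6d (995 bp) and Cpeb2 (987 bp) fell outside the group.

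HDAC3-free sites had a lower median KLF4 height than shared sites, although both sets spanned nearly the same range. Their normalized tag count had a median of 35.5 (quartiles 31.1 and 43.0, maximum 226.9), against 40 (32.9 and 52.9, maximum 206.7) at shared sites. Input tags are on another scale, on which 1 normalized KLF4 tag counts as 2.78 tags, so the deposited fold over input is not the plain quotient of the KLF4 and input tags printed here. Fold over input had a median of 16.5 (11.8 and 25.2) at HDAC3-free sites and 22.2 (15.8 and 33.9) at shared sites, and fold over the surrounding 10 kb had a median of 13.8 at HDAC3-free sites and 17.7 at shared sites. Focus ratio, a fraction that the authors give for each peak, had a median of 0.812 at HDAC3-free sites and 0.820 at shared sites. The weaker distal KLF4 peaks without HDAC3, which lay under 28 tags by definition, had a median of 8.46 tags. At the shared sites themselves the HDAC3 peak had a median of 15.7 normalized tags (11.8 and 21.1), against 5.11 over all HDAC3 peaks.

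**Figure D1:**
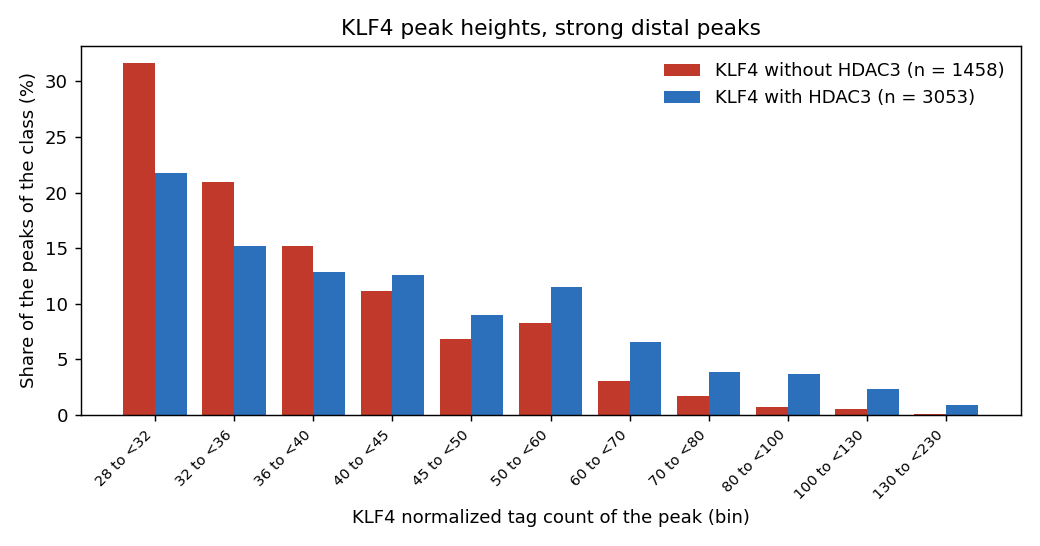
Share of the peaks of each set (vertical axis, %) per bin of KLF4 normalized tag count (horizontal axis), for 1458 strong distal KLF4 peaks without HDAC3 (red) and 3053 with HDAC3 (blue), 1 library per antibody. The lowest bin, 28 to under 32 tags, holds 461 of the red and 664 of the blue peaks, and from 40 tags up the blue share is the larger in every bin.

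The share of sites without HDAC3 was smaller among higher KLF4 peaks and larger where input was high. It was 41.0% (38.1 to 43.9) among strong distal KLF4 peaks of 28 to under 32 tags, 25.7% at 46 to under 60 tags, and 8.84% (4.79 to 14.7; 13 of 147) at 90 tags or more. By input, it was 26.6% (23.4 to 29.98) at 2 to under 4 input tags, 36.4% at 8 to under 10, 47.5% (43.0 to 52.0) at 10 to under 15, and 79.1% (64.0 to 89.96; 34 of 43) at 15 or more. By fold over the surrounding 10 kb, it was 64.3% (59.6 to 68.9) at 4- to under 8-fold and 20% (14.5 to 26.5) at 40-fold or more. Within ranges of KLF4 height the shares differed by input to unequal extents. At 28 to under 32 tags the share was 35.2% (29.3 to 41.4) with under 4 input tags, 37.4% (33.5 to 41.4) with 4 to under 8, and 54.7% (48.5 to 60.8) with 8 or more. At 32 to under 46 tags it was 26.5% (22.3 to 31.1) with under 4 input tags, 31.0% (28.3 to 33.9) with 4 to under 8, and 51.7% (47.3 to 56.1) with 8 or more. At 46 tags or more it was 17.1% (12.3 to 22.9), 19.1% (16.3 to 22.2) and 24.6% (20.8 to 28.7) in these 3 input ranges from low to high, with overlapping intervals. Input of 10 tags or more stood under 18.45% (16.5 to 20.5) of HDAC3-free sites and 8.81% (7.83 to 9.87) of shared sites.

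**Figure D2:**
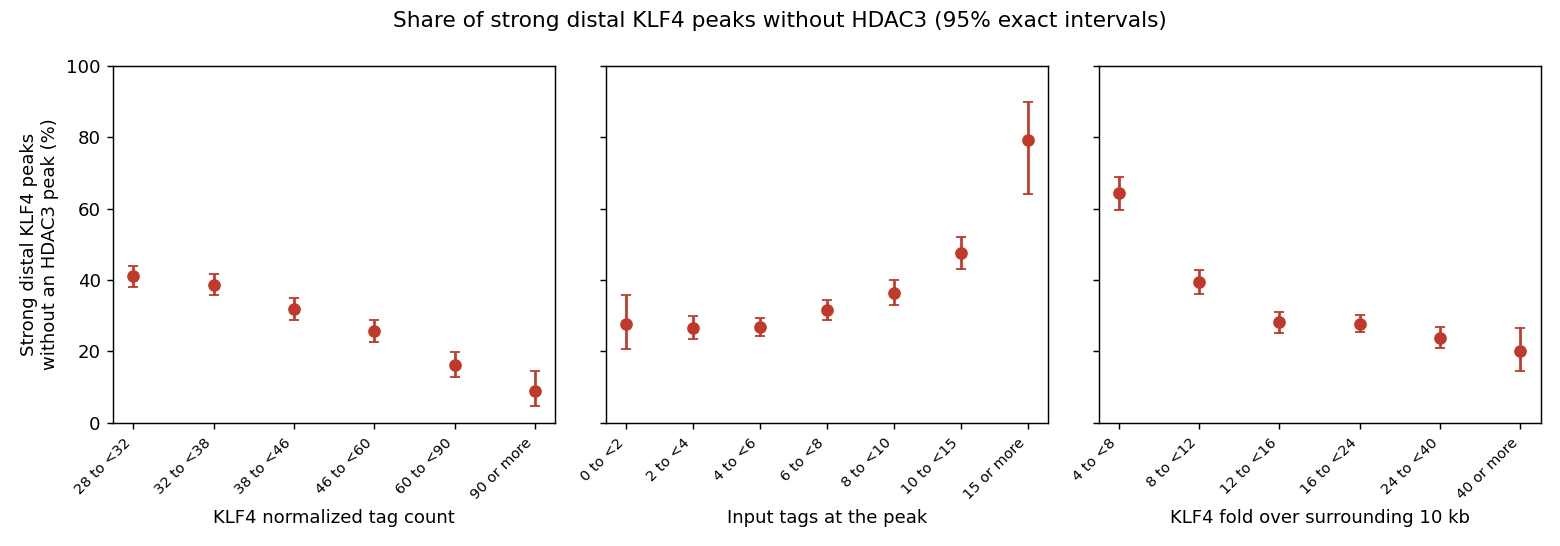
Share of strong distal KLF4 peaks without an HDAC3 peak (vertical axis, %) by KLF4 normalized tag count, by input tags at the peak and by KLF4 fold over the surrounding 10 kb; points are shares over peaks and bars are exact 95% intervals. The share runs down to 8.84% in the highest KLF4 bin, up to 79.1% in the highest input bin, and down to 20% in the highest bin of local fold.

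These inputs also set how high HDAC3 had to be to enter its list. Besides its test against the surrounding 10 kb and a Poisson p-value over input of 1e-04 or below, a call needed 4 times the input and at least 16 tags. From the input tags at each site, the limits of 4 times the input and 16 tags came to a median of 8.64 HDAC3 normalized tags (quartiles 5.76 and 13.0) at HDAC3-free sites. At shared sites they came to 7.20 (5.76 and 10.1). The other requirements were left out, so these are the least that a call needed. Shared sites carried a median of 0.364 HDAC3 tags per KLF4 tag. Had HDAC3 stood at that ratio everywhere, 302 HDAC3-free sites (20.7%; 18.7 to 22.9) and 222 shared sites (7.27%; 6.38 to 8.25) would have had less HDAC3 than these limits. At the 10th percentile of that ratio, 0.216, the same held for 855 HDAC3-free sites (58.6%; 56.1 to 61.2) and 1121 shared sites (36.7%; 35.0 to 38.5). The ratio comes from peaks that passed the HDAC3 call, since no others carry a value. All shared sites did have a call, so these counts do not tell which sites a call would miss. The HDAC3 tags at sites without an HDAC3 peak are not among the values used here, so a site named HDAC3-free is one with no called peak, not one shown to lack the protein. The part of input and of local signal in the results below was not tested.

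HDAC3-free sites had HDAC3 peaks in their surroundings. Their nearest HDAC3 centre was a median of 4983 bp away (quartiles 1958 and 11676), whereas the next HDAC3 centre, of a peak not overlapping them, around shared sites was a median of 7192 bp away (3262 and 13079). Within 5 kb, 50.1% (47.5 to 52.7) of HDAC3-free sites and 34.7% (33.0 to 36.4) of shared sites had such an HDAC3 peak. Within 10 kb the shares were 71.6% (69.2 to 73.9) of HDAC3-free sites and 64.7% (62.9 to 66.4) of shared sites. An HDAC3 call also needed 4-fold over its surrounding 10 kb, where a neighbouring HDAC3 peak counts as surroundings. The part of this calling rule in these distances and shares was not tested. Of the 197 strong KLF4 peaks at gene ends without HDAC3, 45.2% (38.1 to 52.4) had HDAC3 within 5 kb and 69.5% (62.6 to 75.9) within 10 kb, with intervals that include the shares of the distal HDAC3-free sites. These distances rest on the HDAC3 list: with HDAC3 peaks of at least 8-fold over input alone, 65.2% of strong distal KLF4 peaks were HDAC3-free and their median HDAC3 distance was 15960 bp. A minimum spacing of 370 bp between HDAC3 peaks keeps another peak away from a shared site and so lowers its shares at short range: within 500 bp such a peak stood near 96 HDAC3-free sites (6.58%) and 29 shared sites. The nearest HDAC3 peak of an HDAC3-free site overlapped a different KLF4 peak in 56.6% of cases (54.0 to 59.2; 825 of 1458). Among the 96 sites with HDAC3 within 500 bp, that held for 14. Sites with no HDAC3 centre within 50 kb numbered 12 (0.823%) of the HDAC3-free and 29 of the shared sites.

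**Figure D3:**
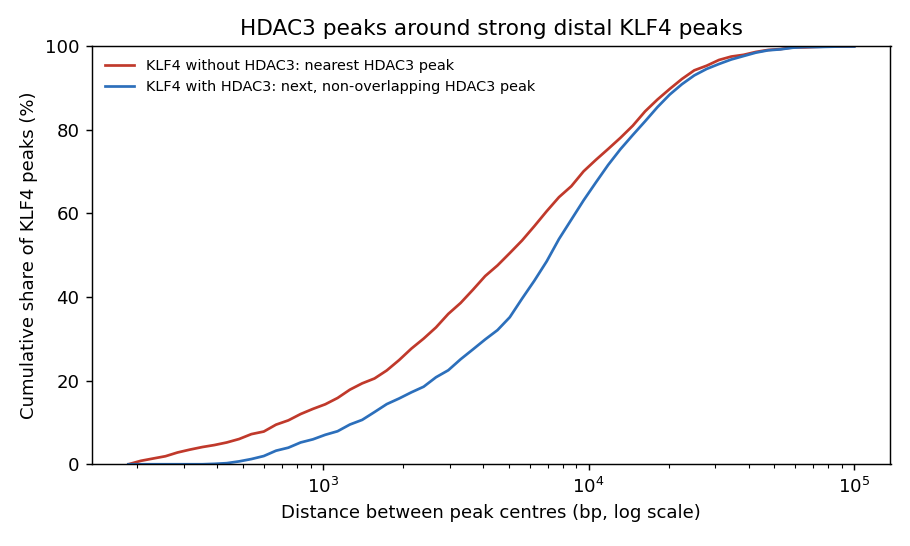
Cumulative share of KLF4 peaks (vertical axis, %) that have an HDAC3 peak centre within the distance on the horizontal axis (bp, log scale): the nearest one for strong distal KLF4 peaks without HDAC3 (red) and the next, non-overlapping one for those with HDAC3 (blue). The red curve passes 50% at 4983 bp and the blue one at 7192 bp, and both come together near 50 kb.

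HDAC3-free and shared sites lay in genes and between them in nearby shares. Inside a protein-coding gene lay 53.2% (50.6 to 55.8) of HDAC3-free sites and 50.9% (49.1 to 52.7) of shared sites, and inside another annotated gene only lay 10.2% of HDAC3-free and 10.5% of shared sites. Between genes lay 36.6% (34.1 to 39.1) of HDAC3-free and 38.6% (36.9 to 40.3) of shared sites. The nearest end of a protein-coding gene was a median of 13113 bp from HDAC3-free sites and 14712 bp from shared sites. Farther than 50 kb from any such end were 16.3% (14.5 to 18.3) of HDAC3-free sites, 19% (17.6 to 20.4) of shared sites and 27.3% (26.7 to 27.8) of weaker distal KLF4 peaks without HDAC3. A RefSeq transcription start of any gene lay within 1 kb of 6.24% (91) of HDAC3-free sites and 5.21% (159) of shared sites, and within 250 bp of 34 HDAC3-free and 64 shared sites. For the position classes and starts, the intervals of HDAC3-free and shared sites overlapped.

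The highest HDAC3-free site was also the highest of all KLF4 peaks. It lay 2885 bp inside Gltp, which encodes a glycolipid transfer protein, at chr5:114687958-114688142, with 226.9 KLF4 tags over 10 input tags (63.3-fold) and the nearest HDAC3 centre 4035 bp away. The next was 10384 bp outside 1810010H24Rik, with 129.2 tags (32.7-fold) and HDAC3 13343 bp away. A site of 120.8 tags lay 300656 bp outside Mn1, a transcriptional coregulator gene, over only 2 input tags (169-fold). The HDAC3 peaks nearest to these 3 sites differed in height, with 35.2 tags at Gltp, 5.99 tags at 1810010H24Rik and 20.6 tags at Mn1.

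A further site of 109.2 tags was 47036 bp outside Tut7, a terminal uridylyltransferase gene, with HDAC3 5654 bp away. In Slc37a1, of the sugar-phosphate transporter family, a site of 107.3 tags had HDAC3 only 361 bp away. The desmosomal plakophilin gene Pkp1 held a site of 106.0 tags 23657 bp inside the gene, 3403 bp from HDAC3. Jpt1 held one of 104.5 tags, 8246 bp from HDAC3, and 1023 bp outside the calcium-binding protein gene S100a13 stood one of 103.5 tags, 624 bp from HDAC3. Prph, the peripherin gene of neuronal intermediate filaments, held 100.4 tags over 2 input tags (139.6-fold), and Srpk1, the splicing factor kinase gene, had a site of 98.5 tags 6589 bp outside it. Completing the highest 12 were a site of 94.4 tags in Hook2, which encodes a microtubule-binding adaptor, and one of 90.8 tags 10511 bp outside Tulp1, a gene known from photoreceptors. The 12 sites thus ran from 90.8 to 226.9 tags, and their HDAC3 distances from 187 to 13343 bp.

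The 5 sites farthest from HDAC3 were of moderate height. The farthest, 27810 bp outside the dynein light chain gene Dynlt1b, had HDAC3 161785 bp away; its 39.4 KLF4 tags stood over 24 input tags, and its fold over input was 4.56, close to the calling limit. In Sec16a, which organises export sites of the endoplasmic reticulum, sites of 34.3 and 32.7 tags were 93414 and 68178 bp from HDAC3. A site of 46.7 tags in Rufy3 was 80676 bp from HDAC3 and one of 31.4 tags near Speer4f2 was 72058 bp from it. These 5 sites ran from 31.4 to 46.7 tags. Among HDAC3-free sites the most input, 48 tags, stood under a site 17914 bp outside Pdia4, named after its values were seen, which had 72.4 KLF4 tags and was 4.19-fold over input.

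Some HDAC3-free sites came in groups. Another one was within 10 kb of 17.9% (15.97 to 19.97; 261) of them and of 14.2% (13.0 to 15.5) of shared sites. A strong distal shared site was within 10 kb of 29.8% (27.5 to 32.3) of HDAC3-free sites and, counting others, of 21.3% (19.9 to 22.8) of shared sites, while any other KLF4 peak was within 10 kb of 80.4% of HDAC3-free and 79.0% of shared sites. Joined wherever neighbours were at most 10 kb apart, the sites formed 1310 chains, of which 1197 were of 1 site, 88 of 2, 17 of 3, 7 of 4 and 1 of 6.

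The chain of 6 sites spanned Sbsn and Dmkn (chr7:30749829-30776389, 26561 bp), which encode suprabasin and dermokine and, with Krtdap beside them, form a cluster of genes for secreted proteins of stratified epithelium. At Sbsn the sites had 47.9, 66.6 and 58.9 tags, and at Dmkn 61.2, 29.0 and 49.8 tags. Within the chain stood 1 shared site of 48.3 tags, whose HDAC3 peak of 28.4 tags was the only one across the span. A further HDAC3-free site of 44.1 tags, outside the chain, lay 1439 bp from Krtdap. Fold over the surrounding 10 kb was between 4.04 and 8.08 at the 6 sites of the chain, against a median of 13.8 over all HDAC3-free sites.

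At Gltp, a chain of 4 held the site of 226.9 tags and others of 29.6, 32.4 and 34.7 tags, with a shared site of 81.1 KLF4 tags among them and shared sites of 121.3 and 111.7 tags beyond it. The HDAC3 peaks of those 3 shared sites had 40.1, 35.2 and 34.5 tags. The chain in Ccdc12 had 56.5, 50, 58.4 and 42.2 tags and held 1 HDAC3 peak. The chain outside Fgd2, which encodes an exchange factor of the GTPase Cdc42, had 52.1, 66.6, 49.0 and 34.5 tags with no HDAC3 peak in its 9561 bp. In Ppard, the gene of the nuclear receptor PPARδ, sites of 29.3, 37.8, 31.3 and 55.7 tags fell within 7708 bp that held no HDAC3 peak either, the nearest one being 9202 bp from the last of them.

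**Figure D4:**
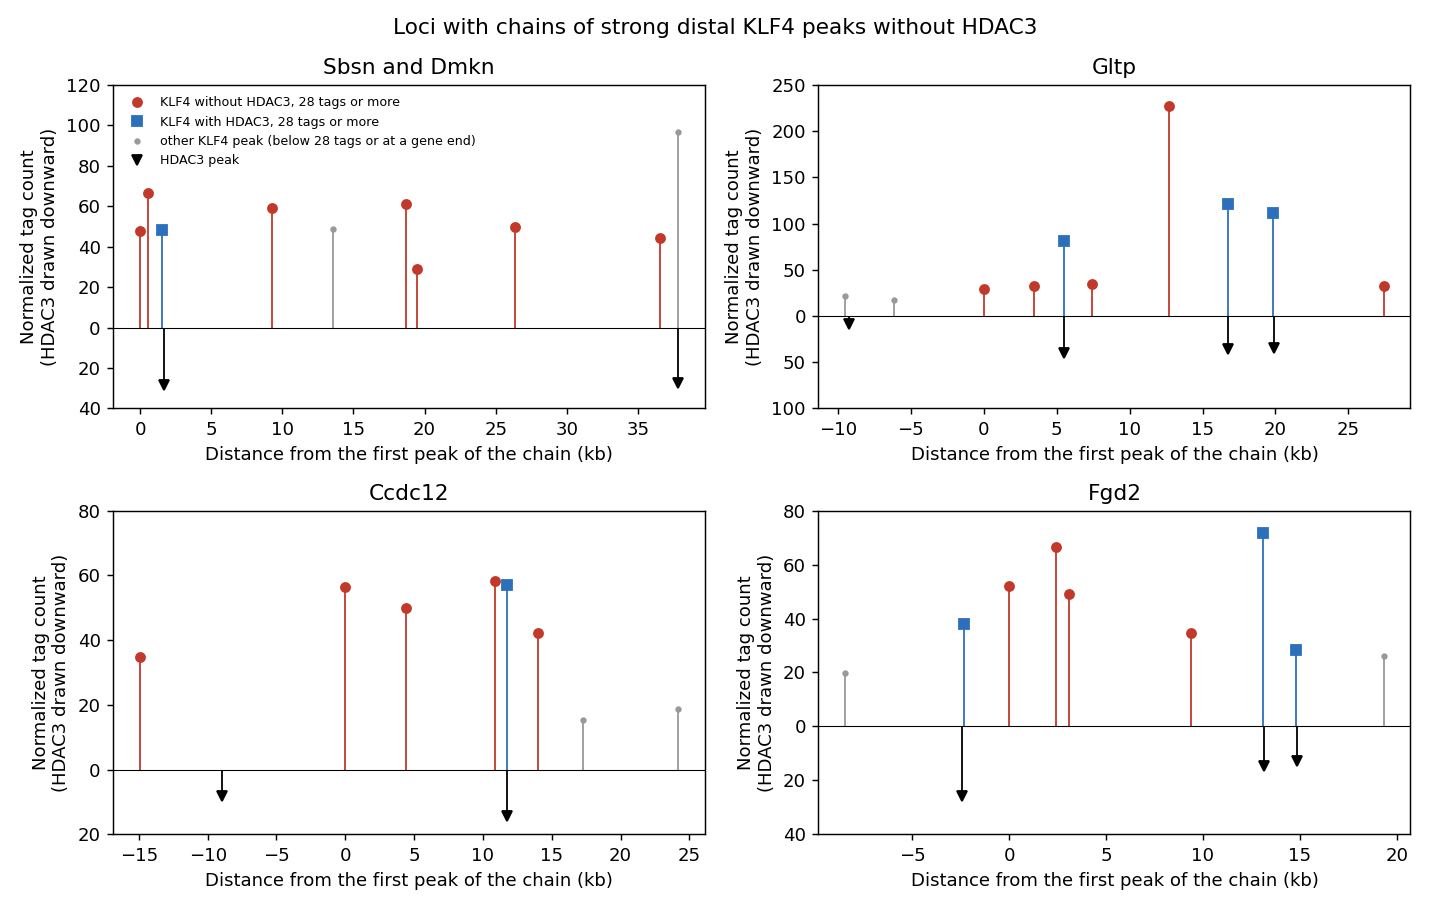
KLF4 and HDAC3 peaks around 4 chains of strong distal KLF4 peaks without HDAC3; the horizontal axis is distance in kb from the first peak of the chain, the vertical axis is normalized tag count, upward for KLF4 (red circles without HDAC3, blue squares with HDAC3, grey dots below 28 tags or at a gene end) and downward for HDAC3 (black triangles). In the Gltp panel the red peak of 226.9 tags has no HDAC3 below it while the blue peaks of 121.3 and 111.7 tags do, and in the Fgd2 panel the chain of 4 red peaks has none.

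A site was next assigned to the protein-coding gene that held its centre or, failing that, to the gene with the nearest end; the assignment names a position and does not show regulation. HDAC3-free sites were assigned to 1149 of 21887 protein-coding genes (5.25%), and shared sites to 2128 genes (9.72%). With the nearest end deciding every case, 1157 genes (5.29%) had an HDAC3-free site. Both kinds of site were assigned to 540 genes, which is 47.0% (44.1 to 49.9) of the genes with an HDAC3-free site and 25.4% (23.5 to 27.3) of those with a shared site. Any HDAC3 peak was assigned to 91.6% (89.8 to 93.1) of genes with an HDAC3-free site, to 84.1% of genes with any KLF4 peak and to 63.7% of all protein-coding genes. Of genes with a shared site, 88.4% (87.0 to 89.8) were assigned more HDAC3 peaks than shared sites. Genes with an HDAC3-free site were long, with a median of 33.3 kb, against 38.4 kb for genes with a shared site and 17.2 kb for all. The part of gene length in these shares was not tested. A KLF4 peak stood at an end of 34.8% of genes with an HDAC3-free site and of 20.6% of all protein-coding genes.

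Most genes had 1 HDAC3-free site (938 of 1149), and 65 had 3 or more. Cryaa, which encodes a lens crystallin, was assigned 6 from outside the gene, of 31.4 to 49.3 tags and 8079 to 66640 bp away. Zmiz1, a coactivator gene of 209 kb, was also assigned 6, of 30.1 to 40.9 tags, beside 6 shared sites. Genes with 5 were Niban2 (up to 71.8 tags), Fgd2 (66.6), Ccdc12 (58.4), Myo1e (41.7), Slc22a23 (41.2) and Nrarp (39.6), the gene of a feedback inhibitor of Notch signalling. Of these 8 genes, each also had at least 1 shared site, from 1 at Ccdc12 and Nrarp to 6 at Zmiz1.

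No HDAC3 peak at all was assigned to 97 (8.44%; 6.90 to 10.2) of the genes with an HDAC3-free site. The following were named after their values were seen. The 2 highest were 1810010H24Rik (129.2 tags) and Jpt1 (104.5 tags). Zbtb7a, which encodes a zinc finger repressor, had a site of 70.8 tags, and Aqp2, an aquaporin gene of the kidney collecting duct, one of 70.6 tags. S100a16 had 2 sites, up to 63.5 tags, and Dmkn 3, up to 61.2 tags. Tjp3, which encodes the tight junction protein ZO-3, had 1 of 30.1 tags. The nearest HDAC3 peak was assigned to another gene in each case: it lay 14530 bp from the Zbtb7a site, 12566 bp from the Aqp2 site and 19914 bp from the Tjp3 site.

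The late differentiation genes, whose products build and cross-link the cornified envelope, had an HDAC3-free site at 10 of 42 genes (23.8%; 12.1 to 39.5), beside 5.25% of all protein-coding genes. Shared sites were at 13 (31.0%) of the list, beside 9.72% of all. Both kinds stood at 5 genes, and at 5 the HDAC3-free sites stood without a shared one. Sbsn led with 66.6 tags, then Dmkn with 61.2 tags, both in the chain above. Tgm1, the transglutaminase that cross-links envelope proteins, had sites of 53.6 and 37.8 tags inside the gene and no strong distal shared site. Cnfn, which encodes cornifelin, had 1 of 46.9 tags 1093 bp outside the gene and 1848 bp from HDAC3.

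Among spinous layer and Notch genes, active in cells just above the basal layer, 3 of 21 had an HDAC3-free site (14.3%; 3.05 to 36.3). That interval includes the 5.25% of all protein-coding genes. Shared sites were at 10 genes (47.6%; 25.7 to 70.2), beside 9.72% of all. Ovol1, a repressor gene of epidermal differentiation, had HDAC3-free sites of 63.6 and 33.5 tags, and its shared sites had 129.9 and 56.0 tags. A keratin gene, Krt78, had sites of 59.1 and 42.3 tags, the higher over 2 input tags (82.1-fold). The suprabasal keratin gene Krt10 had 1 of 30.9 tags, 6649 bp outside the gene, and no strong distal shared site. In the basal layer and hemidesmosome list, 4 of 21 genes had an HDAC3-free site (19.05%; 5.45 to 41.9) and 7 had a shared site. Krt14, the basal keratin gene, had HDAC3-free sites of 60.2 and 29.0 tags beside a shared site of 39.1 KLF4 tags, and HDAC3 was 2590 bp from the higher one. Cdh3, the P-cadherin gene, had sites of 39.1 and 31.6 tags, the laminin gene Lamb3 one of 30.9 tags over 13 input tags (6.61-fold), and Plec, which encodes the linker protein plectin, one of 28.5 tags.

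Junction genes, whose products hold keratinocytes together and seal the spaces between them, had an HDAC3-free site at 11 of 30 genes (36.7%; 19.9 to 56.1) and a shared site at 15 (50%). Pkp1 was assigned 4 sites of each kind. Its HDAC3-free sites had 106.0 and 54.9 tags inside the gene and 29.0 and 30 tags outside it, and its shared sites had 37.9, 50.1 and 100.8 KLF4 tags inside and 34.7 outside. Inside Pkp1, both HDAC3-free sites lay between shared sites. Nectin4, an adhesion molecule gene, had HDAC3-free sites of 32.1, 40.4 and 60.1 tags inside the gene and no strong distal shared site. Nectin2, of the same family, had 1 of 58.8 tags, 12249 bp from HDAC3. Jup, the plakoglobin gene, had an HDAC3-free site of 51.3 tags with a shared site of 75.7 KLF4 tags beside it, and the HDAC3 centre was 884 bp from the HDAC3-free one. At Cdh1, the E-cadherin gene, which was named after its values were seen, HDAC3-free sites had 33.7, 37.4 and 28.8 tags and shared sites had 66.1, 38.4 and 34.5 KLF4 tags.

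Barrier lipid genes, whose products synthesize or transport lipids of the stratum corneum, had an HDAC3-free site at 14 of 42 genes (33.3%; 19.6 to 49.5) and a shared site at 22 (52.4%), with both kinds at 12. After Gltp came Ugcg, the glucosylceramide synthase gene, with a site of 90.7 tags 17436 bp outside the gene; HDAC3 was centred 206 bp from it, just past the limit. Dgat2, a triglyceride synthesis gene, had HDAC3-free sites of 59.6 and 51.3 tags beside a shared site of 48.0 KLF4 tags. Elovl4, which elongates very long fatty acids, had 1 HDAC3-free site of 57.8 tags, 14104 bp from HDAC3, and its 6 shared sites had 28.8 to 44.1 KLF4 tags. The highest HDAC3-free site was thus above the highest shared site at Dgat2 and Elovl4, as it was at Gltp and Pnpla3. At Cyp4f39, Aloxe3, Sdr9c7, Cers3, Scd1, Elovl6, Aldh3a2 and Degs1 the highest shared site was the higher one.

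Transcription factor genes of the epidermis had an HDAC3-free site at 21 of 50 genes (42.0%; 28.2 to 56.8) and a shared site at 33 (66.0%), with both at 17. After Ovol1, which is also in the spinous list, came Rora, a nuclear receptor gene, with HDAC3-free sites of 35.3, 62.7 and 34.8 tags and shared sites of 29.0 to 85.1 KLF4 tags. Rxra, the gene of the shared partner of many nuclear receptors, had HDAC3-free sites of 33.7, 58.9, 41.8 and 29.0 tags, and 3 of them lay 41458 to 56030 bp from HDAC3. The site of 58.9 tags stood over 15 input tags (10.98-fold). Ppard had the 4 sites of its chain and 1 shared site of 61.5 KLF4 tags. Klf4, named after its values were seen as the gene of the factor itself, was assigned 1 HDAC3-free site of 48.3 tags, 162764 bp outside the gene, and 8 shared sites of 28 to 96.4 KLF4 tags.

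Immediate early and stress genes, which respond rapidly to growth factors and wounding, had an HDAC3-free site at 13 of 29 genes (44.8%; 26.4 to 64.3) and a shared site at 19 (65.5%). Klf10 had a site of 68.5 tags, 530 bp from HDAC3, and Klf2 one of 52.3 tags, 3211 bp from HDAC3 and with no strong distal shared site at the gene. The AP-1 genes Fosl2 and Jun each had 1 of 47.9 tags, with HDAC3 368 bp from the Fosl2 site and 733 bp from the Jun site. The highest HDAC3-free site of each of the 13 genes lay outside the gene, and so did their shared sites. Several of these genes are short, such as Klf2 at 2.59 kb and Jun at 3.19 kb. The limit of 1 kb from gene ends left little room for a site inside such short genes. Others were longer, such as Fosl2 at 21.4 kb, Klf10 at 9.25 kb and Fosb at 7.42 kb. The part of gene length in these positions was not tested. The list of p53 and cell cycle arrest genes had HDAC3-free sites at 1 of 18 (5.56%; 0.141 to 27.3), beside 5.25% of all protein-coding genes. That gene was the cell cycle inhibitor gene Cdkn1a. Its HDAC3-free sites had 33.7, 32.7 and 33.0 tags inside the gene over 15, 12 and 6 input tags, and HDAC3 was 14923 to 18239 bp away. Shared sites were at 4 genes (22.2%) of that list.

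Growth factor receptors and ligands had an HDAC3-free site at 7 of 41 genes (17.1%; 7.15 to 32.1) and a shared site at 14 (34.1%). Epha4, an ephrin receptor gene, had 3, of 68.4, 38.9 and 32.1 tags; the highest was 531691 bp outside the gene and 187 bp from HDAC3. Wnt4 had sites of 48.2 and 29.5 tags, Errfi1, which encodes a feedback inhibitor of the EGF receptor, had sites of 45.9 and 37.4 tags, and Bmp7 sites of 36.3 and 33.0 tags. Keratinocyte inflammation genes had an HDAC3-free site at 5 of 30 genes (16.7%; 5.64 to 34.7) and a shared site at 10 (33.3%). Il6ra had a site of 40.4 tags, Card14, which encodes a scaffold of NF-kB signalling, sites of 40.2 and 37.1 tags, the interleukin 1 antagonist gene Il1rn one of 36.6 tags over no input tag, and Il1a one of 35.3 tags. Both interleukin 1 genes lacked a strong distal shared site.

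Genes of actin and cell migration had an HDAC3-free site at 11 of 37 (29.7%; 15.9 to 47.0) and a shared site at 16 (43.2%). Lmna, the lamin A gene, had a site of 82.5 tags 11386 bp inside the gene, 3863 bp from HDAC3. Capn2, a calpain gene, had one of 66.6 tags 333 bp from HDAC3, the polarity gene Pard3 sites of 49.0 and 33.9 tags, and the cytoplasmic actin gene Actg1 sites of 43.8 and 31.4 tags. Of 22 genes of HDACs and HDAC3 corepressors, 2 (9.09%; 1.12 to 29.2) had an HDAC3-free site and 4 (18.2%) a shared site. Those 2 were Tle3, a Groucho family corepressor gene, with HDAC3-free sites of 34.8, 29.5 and 34.0 tags beside 10 shared sites of 28.6 to 92.6 KLF4 tags, and the class IIa deacetylase gene Hdac5 with 1 of 31.4 tags. Of 26 hair follicle genes, 1 (3.85%; 0.0973 to 19.6) had an HDAC3-free site and 6 (23.1%) a shared site. The HDAC3-free site was at Msx2, with 31.6 tags. For the hair follicle list and for the list of HDACs and corepressors, these intervals include the 5.25% of all protein-coding genes. No HDAC3-free site was assigned to any of the 28 ribosomal genes listed, a count that allows a share of up to 12.3%. Of those 28 genes, 3 (10.7%) had a shared site. Rpl38, a ribosomal protein gene not on that list and named after its values were seen, was the gene nearest to an HDAC3-free site of 60.6 tags, 280544 bp outside it.

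HDAC3-free sites lay at some keratinocyte markers and at none of the listed markers of other cell types. HDAC3-free sites were assigned to 4 of 12 keratinocyte markers (33.3%; 9.93 to 65.1), which were Krt14, Cdh1, Dsp and Krt10, and shared sites to 7. None of 12 dermal fibroblast, 10 melanocyte, 10 endothelial, 10 leukocyte and Langerhans or 8 Merkel cell markers had an HDAC3-free site, while shared sites were at 2 endothelial markers and 1 Merkel cell marker. Lists this short allow shares of up to 26.5% (fibroblast) to 36.9% (Merkel cell) at a count of 0 by the exact interval, so a share near the 5.25% of all protein-coding genes would not be told apart from none. KLF4 peaks of any height were assigned to 11 of the 12 keratinocyte, 10 of the 12 fibroblast, 8 of the 10 melanocyte, 6 of the 10 endothelial, 4 of the 10 leukocyte and 5 of the 8 Merkel cell markers. Occupancy is not expression, and bulk chromatin does not tell which cells a site came from.

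**Figure D5:**
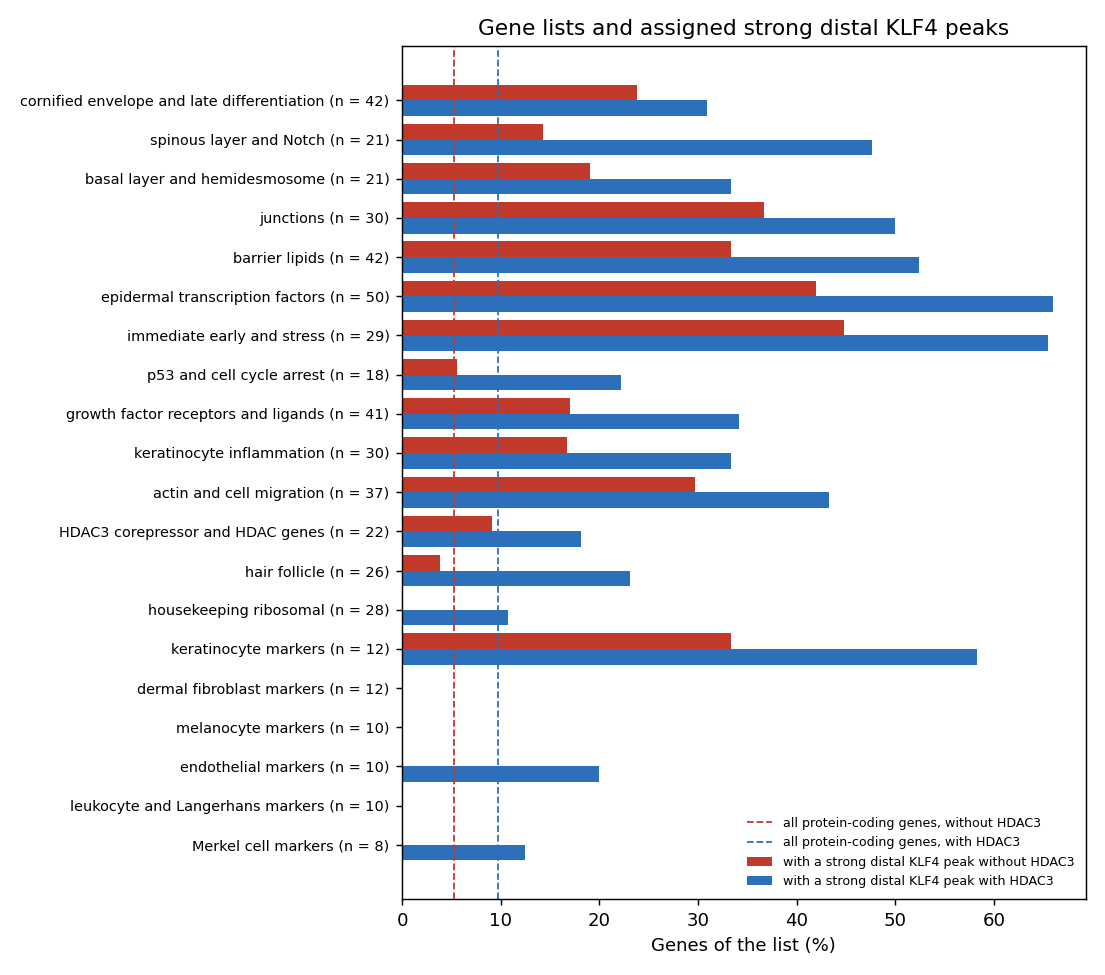
Share of the genes of each list (horizontal axis, %) that had a strong distal KLF4 peak without HDAC3 (red) or with HDAC3 (blue) assigned to them; dashed lines mark the shares over all protein-coding genes, 5.25% in red and 9.72% in blue. The red bars are longest for immediate early and stress genes (44.8%) and epidermal transcription factors (42.0%), no red bar is longer than the blue bar of its list, and 6 lists have no red bar.

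HDAC3-free sites lay on all chromosomes. Chromosome 11 held the most, 172 (11.8%), and 318 shared sites (10.4%), beside 7.35% of the protein-coding genes. The X chromosome held 1 HDAC3-free and 8 shared sites among its 841 KLF4 peaks, and Y held 1 HDAC3-free site. The share of strong distal peaks without HDAC3 ran from 25% (18.3 to 32.7) on chromosome 16 to 37.0% (29.1 to 45.4) on chromosome 14 among the autosomes. A microRNA hairpin lay within 10 kb of 33 HDAC3-free sites (2.26%; 1.56 to 3.16), of 65 shared sites (2.13%; 1.65 to 2.71) and of 1.54% of all KLF4 peaks on chromosomes, so the intervals of HDAC3-free and shared sites overlapped. Named after their values were seen, these included the hairpin of Mir205, a microRNA abundant in skin epithelium, 4843 bp from a site of 34.8 tags that was 2129 bp from the start of its host transcript Mir205hg. Others were Mir210, known from the response to low oxygen, 1666 bp from a site of 31.9 tags, and Mir34a, a p53 target, 5959 bp from a site of 28.2 tags with HDAC3 514 bp away.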

How the data were processed

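ChIP-seq peak lists for KLF4 and HDAC3, 1 library each against the same input, were analysed. The submitters' processing notes name GRCm38.p5, HOMER, STAR and bcl2fastq, without versions of the tools. Per the file headers, peaks of 185 bp at least 370 bp apart were called per library, at 4-fold or more over input and over the surrounding 10 kb, with a Poisson p-value of 1e-04 or below and a false discovery rate of 0.001. The KLF4 library held 61432711 tags and the HDAC3 library 56787485.

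The deposited tag count is a signal normalized by the authors to 10000000 tags, and input tags of 0 are written as 0.5. The authors' score, ratio (fold over input and local region) and fraction (focus ratio) columns describe peaks, and the authors' p-value columns were not used. Because HDAC3 values are listed at its peaks alone, a missing call depends on input and depth.

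KLF4 peaks outside the assembled chromosomes (15) were left out. Peak centres, (start + end)/2, were placed on the RefSeq gene table of GRCm38.p6, which gives no strand, with Python 3.11.15, pandas 2.3.3 and NumPy 2.4.6. Intervals used SciPy 1.17.1, and the scripts were tested on simulated data. The least HDAC3 level needed for a call, the strata and the promoter windows were added after the data were seen. The planned motif search over all members needed a genome, which was not used here. The members and the 20 gene lists (499 entries, all matched) were chosen with earlier results of these data known. Named are the 12 highest members, the 5 farthest from HDAC3, the 8 genes with most members, up to 4 genes per list, 2 peaks on each side of each limit and the 5 largest chains; others are marked as named after their values were seen, and 1 peak under this rule is not reported here. Alternatives varied the tag minimum, the HDAC3 distance, the gene-end distance, the fold over input, the chain distance and the gene assignment.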

Additional observations from a re-analysis of the deposited data

How the results depend on the processing

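The number of HDAC3-free sites and of their genes depended on the tag minimum and on the HDAC3 list. With a minimum of 20 tags there were 3532 sites (42.1% of strong distal KLF4 peaks, 2404 genes, median 12.9-fold over input), and with 40 tags 470 sites (23.5%, 420 genes, 21.7-fold), against 1458 (32.3%, 1149 genes, 16.5-fold). With HDAC3 peaks of at least 8-fold over input there were 2941 sites (65.2%, 2036 genes, 17.1-fold), a median of 15960 bp from HDAC3, since fewer HDAC3 peaks were counted. With KLF4 peaks of at least 8-fold the median fold was 17.0. Counting HDAC3 within 92 bp, 500 bp or 1 kb gave shares of 35.7%, 30.2% and 27.8% and median HDAC3 distances of 4050, 5593 and 6278 bp, which follow from the rule itself. Neighbours joined at up to 25 kb gave 174 chains of 2 or more, against 113 at 10 kb. The share inside protein-coding genes stayed between 51.2% and 55.1% under the 9 alternatives run on it, and the list counts under the nearest-end assignment were the same except for actin and cell migration (10 genes in place of 11). No paired analysis was possible because there was 1 library per antibody, and for the same reason no replicate could be left out.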
